A study of Mus musculus with 18 samples.

Results

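The comparison covers p53ER cells kept for 4 h with vehicle against the same cells at 0 h, that is 4 h in culture with the p53 fusion left inactive. Its members are 6 of the 18 arrays of the series, chosen by their titles: 3 arrays of the vehicle group and 3 at 0 h, each numbered 1 to 3. Each array measured total RNA of TKO cells, a mouse cell line that the labels describe as telomere dysfunctional, grown in medium with serum. p53ER joins p53 to a hormone-binding domain of the estrogen receptor, so that the protein becomes functional only when 4-hydroxytamoxifen (4-OHT) is added. Both groups of the comparison express p53ER and neither received 4-OHT; one was collected at 0 h and the other after 4 h with vehicle. The labels do not say what the vehicle was, nor whether the medium was replaced at its addition. The other groups, 3 arrays each, are p53ER cells after 4 h with 100 nM 4-OHT, and uninfected TKO cells, without the fusion, at 0 h, after 4 h with vehicle and after 4 h with 100 nM 4-OHT. There is no group infected without the fusion, and all 6 groups come from the same line. The labels give replicate numbers but do not say that these were separate cultures, so p-values measure the spread between arrays, which may be technical.

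As background, leukemia inhibitory factor (Lif) and interleukin 11 (Il11) belong to the IL-6 family of cytokines, which act through receptors that contain the gp130 subunit and activate JAK kinases and the transcription factor STAT3. Fibroblasts and other mesenchymal cells make these cytokines, and serum, growth factors and stress acting through MAP kinases and AP-1 factors are known to raise their mRNA. Cyp51 encodes lanosterol 14-alpha-demethylase, an enzyme of cholesterol synthesis whose gene belongs to the targets of SREBP transcription factors, which are released when sterols in the endoplasmic reticulum are low. A comparison of treated cells with cells at 0 h holds all that happens in culture in the meantime, and the comparison of vehicle with 0 h shows that portion by itself.

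The promoters of Lif, Il11 and Cyp51 are shown because the first pair had the largest differences among the named cytokines and Cyp51 is the enzyme the comparison was marked by. They are the RefSeq promoters of build GRCm38.p6, from 250 bases before to 50 bases after a start of transcription, 5' to 3' on the gene's strand. Capitals mark matches to one of 6 motifs, searched on both strands: the AP-1 site TGANTCA, the cAMP response element TGACGTCA, the sterol regulatory element TCACNCCAC, the E-box CACGTG, the antioxidant response element TGACNNNGC and the xenobiotic response element TNGCGTG. Of 32851 promoters of this length in the table, 7.81% hold the AP-1 site, 1.79% the cAMP response element, 1.24% the sterol regulatory element, 7.15% the E-box, 12.4% the antioxidant response element and 5.07% the xenobiotic response element.
Lif, chr11:4257318-4257617, plus strand: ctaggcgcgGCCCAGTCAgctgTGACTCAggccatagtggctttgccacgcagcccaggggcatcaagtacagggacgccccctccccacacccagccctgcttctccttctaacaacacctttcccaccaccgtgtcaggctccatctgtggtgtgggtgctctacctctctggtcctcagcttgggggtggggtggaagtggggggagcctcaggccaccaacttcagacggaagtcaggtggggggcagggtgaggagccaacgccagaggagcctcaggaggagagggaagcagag
Il11, chr7:4778092-4778391, minus strand: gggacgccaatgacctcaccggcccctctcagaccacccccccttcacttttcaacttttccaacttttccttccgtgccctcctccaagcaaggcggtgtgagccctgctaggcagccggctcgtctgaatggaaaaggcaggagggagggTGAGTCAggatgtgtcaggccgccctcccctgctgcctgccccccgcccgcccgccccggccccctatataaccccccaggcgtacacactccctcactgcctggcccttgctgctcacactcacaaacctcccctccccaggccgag
Cyp51, chr5:4104648-4104947, minus strand: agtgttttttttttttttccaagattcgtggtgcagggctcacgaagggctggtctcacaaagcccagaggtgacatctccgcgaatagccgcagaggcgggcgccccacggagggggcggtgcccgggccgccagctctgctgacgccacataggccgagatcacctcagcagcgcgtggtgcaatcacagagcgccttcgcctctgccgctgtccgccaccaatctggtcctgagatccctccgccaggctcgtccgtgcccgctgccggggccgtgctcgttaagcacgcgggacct
The Lif promoter held an AP-1 match, TGACTCA, from -228 to -222 relative to the start, and beside it a match to the antioxidant response element on the other strand, from -241 to -233. The Il11 promoter held an AP-1 match, TGAGTCA, from -98 to -92, and a second annotated Il11 start, with its promoter at chr7:4782808-4783107 on the minus strand, held none of the 6 motifs. No match to these letters was present in the Cyp51 window. The matches describe sequence only, since no binding was measured.

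Levels below are log2 signals, that is log2 of the scaled MAS5 signal plus 4.13, and differences are vehicle minus 0 h on that scale, which understates the change of dim genes. Before scaling, the trimmed mean signal ran 3.12-fold over the 18 arrays, from 47.5 to 148. The first principal component held 23.9% of the variance and set 3 arrays apart: replicate 1 of the p53ER vehicle group, replicate 3 of the p53ER 0 h group and replicate 2 of the uninfected 0 h group. The second held 21.8% and set replicate 3 of every group apart from replicates 1 and 2. Of the 3 arrays apart, 2 belong to this comparison, so its values are also given without the 3, as 2 arrays against 2. Those left are replicates 1 and 2 at 0 h and replicates 2 and 3 with vehicle. Replicate 3, set apart by the second component, is then on the vehicle side only, and all values without the 3 arrays carry that imbalance. The ligand-binding part of the fusion comes from the estrogen receptor. The brightest Esr1 probe set read 6.96 to 10.46 on the 9 p53ER arrays and 2.99 to 4.85 on the 9 uninfected arrays, with no overlap. It read 7.42, 7.68 and 9.60 at 0 h and 7.84, 6.96 and 10.46 with vehicle, and every one of these arrays lay above all uninfected arrays. On the 0 h and vehicle arrays, a dimmer Esr1 probe set kept the cell types apart narrowly. Its lowest p53ER value was 4.79 and its highest uninfected value 4.59. The dimmest overlapped, at 2.95 to 4.71 in p53ER cells and 2.73 to 4.18 in uninfected cells.

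Every listed mesenchymal marker was tested, which held for no other marker list, although all neural and glial markers on the array were tested too. All 13 mesenchymal markers passed the filter on dim genes, with vimentin (Vim) at a mean of 13.8 and Col1a2 at 12.6 in p53ER cells at 0 h. Of 8 epithelial markers 4 passed the filter, of 5 endothelial markers 2 and of 5 muscle markers 3. Of 8 blood markers 7 were on the array and 3 passed, and of 6 neural and glial markers 5 were on the array and 5 passed. Cdh1, Ptprc, Pecam1 and Myod1, which define epithelial, blood, endothelial and muscle cells, were on the array and too dim to be tested. Members of other lists that did pass read, as means in p53ER cells at 0 h, 7.16 for Epcam and 6.20 for Krt19 (epithelial), 7.69 for Acta1 (muscle), 7.62 for Nes (neural), 6.23 for Csf1r (blood) and 6.02 for Kdr (endothelial). The other Epcam probe set read 2.59, 2.75 and 2.71 on the same arrays, near the floor of 2.05, so the Epcam level depends on the probe set. The median vehicle minus 0 h difference was -0.15 for the mesenchymal, -0.40 for the epithelial, -0.24 for the blood, -0.30 for the endothelial, 0.22 for the muscle and 0.03 for the neural and glial markers that were tested, and -0.92 for the epithelial markers without the 3 arrays apart. Their part in the results below was not tested.

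No gene passed the test. Of 10916 genes tested, 0 (0%) had an adjusted p under 0.05 in limma in p53ER cells, the smallest adjusted p being 1, and 333 had an unadjusted p under 0.05. So the values that follow describe levels and their spread, and none is a change called by the test. Without the 3 arrays apart, limma called 1 gene, Slc36a3 (adjusted p = 0.0414), and 699 had an unadjusted p under 0.05. The 3 vehicle arrays lay above the 3 at 0 h for 2.4% of the genes and below them for 3.62%. Read number by number, 9.39% of the genes were higher with vehicle in all 3 numbers and 11.2% lower in all 3. The median difference over all genes tested was -0.03, and 44.6% of them had a higher mean with vehicle. Counts of higher members in the lists below stand beside that share. In uninfected cells, the same comparison, which shares no array with this one, also gave 0 genes at an adjusted p under 0.05 in limma, with 616 at an unadjusted p under 0.05; the vehicle arrays lay above those at 0 h for 4.17% of genes and below for 7.29%.

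Lif was higher with vehicle on average by 1.99 log2 units in p53ER cells and by 2.06 in uninfected cells, and its level depended on the replicate number. In p53ER cells it read 6.36, 6.01 and 8.16 at 0 h in replicates 1, 2 and 3, and 7.17, 8.22 and 11.11 with vehicle. The groups overlap, because replicate 3 at 0 h lay above replicate 1 with vehicle, while within each number the vehicle array was the higher one, by 0.81, 2.22 and 2.95. The mean difference was a 3.98-fold ratio with a standard error of 1.01 log2 units (n = 3 and 3; limma adjusted p = 1). Without the 3 arrays apart the difference was 3.48 in p53ER cells, with replicate 3 on the vehicle side only, and 1.96 in uninfected cells. No gene differed between the cell types there in limma either (smallest adjusted p = 0.982). In uninfected cells Lif read 6.70, 7.0 and 7.89 at 0 h and 8.68, 8.52 and 10.57 with vehicle, without overlap. Set against uninfected cells directly, p53ER minus uninfected was -0.07 (SE 1.43), with a limma adjusted p of 1, over all arrays. A dimmer second probe set of Lif gave 1.64 (SE 0.71) in p53ER cells and 0.57 (SE 0.71) in uninfected cells, so the size of the difference depends on the probe set. The mean was higher with vehicle on both. In uninfected cells number 2 of the dimmer one was lower, with 5.95 at 0 h and 5.47 with vehicle.

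Il11 showed the same pattern with a narrower spread. It read 5.78, 5.83 and 6.93 at 0 h and 7.29, 7.47 and 9.65 with vehicle, so that every vehicle array lay above every array at 0 h. The mean difference was 1.95 (SE 0.63; 3.88-fold; limma adjusted p = 1), and 2.75 without the 3 arrays apart. In uninfected cells Il11 was higher with vehicle by 2.48 (SE 0.63), also without overlap, and the cell types differed by -0.53 (SE 0.88; limma adjusted p = 1). Fgf2, a fibroblast growth factor, read 5.05, 4.79 and 4.49 at 0 h and 5.62, 5.64 and 6.35 with vehicle. Its difference was 1.09 (SE 0.28) in p53ER cells and 1.08 in uninfected cells, with no overlap in either.

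**Figure D1:**
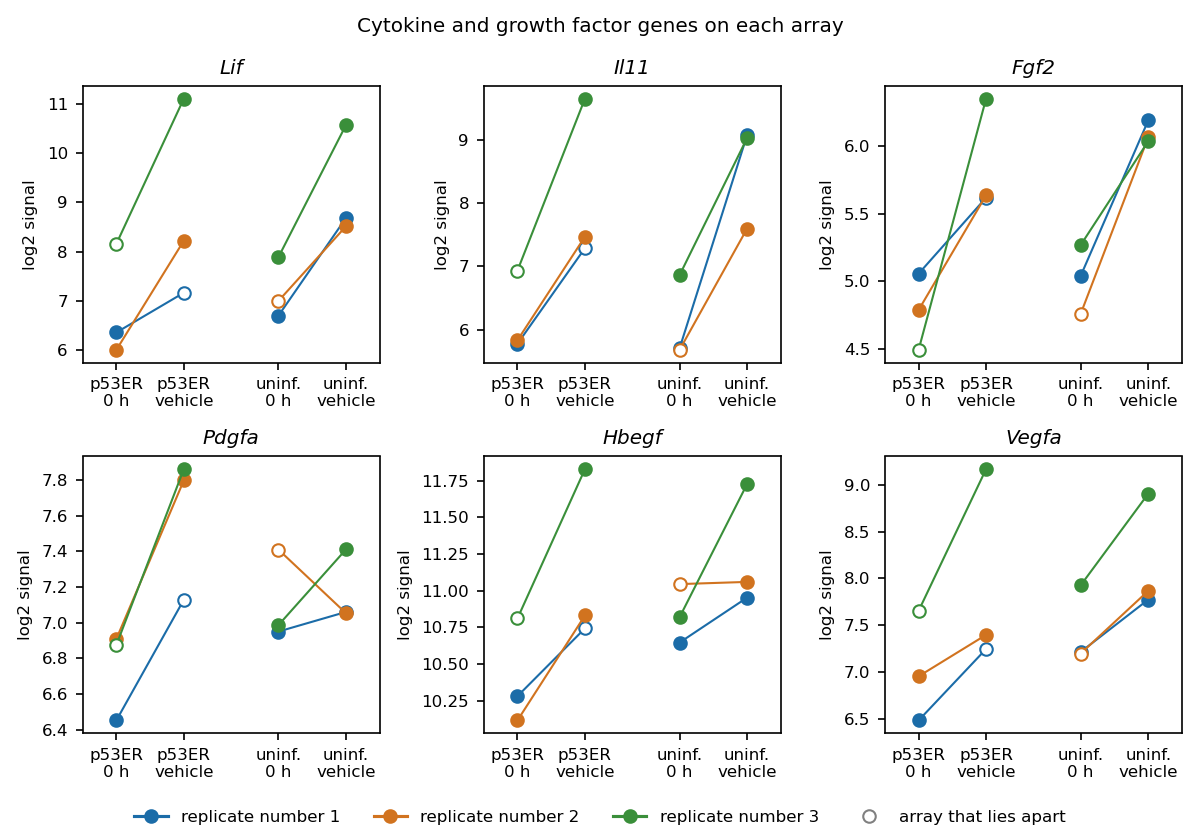
Log2 signal of 6 cytokine and growth factor genes (vertical axis, one scale per panel) on each array of p53ER and uninfected cells at 0 h and after 4 h with vehicle; lines join arrays of the same replicate number and open circles mark the 3 arrays that lie apart. Lif was higher with vehicle in every number of p53ER cells, by 0.81 to 2.95, and the brighter probe set of Pdgfa separated the groups in p53ER cells but not in uninfected cells.

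Pdgfa, the A chain of platelet-derived growth factor, had a larger difference in p53ER cells than in uninfected cells on its brighter probe set. That probe set read 6.45, 6.91 and 6.87 at 0 h and 7.13, 7.80 and 7.86 with vehicle, a difference of 0.85 (SE 0.23). In uninfected cells the vehicle array was higher in numbers 1 and 3, by 0.11 and 0.42, and lower in number 2, by 0.36, with a mean of 0.06. The difference between the cell types, 0.79 (SE 0.32), did not pass the test (limma adjusted p = 1), and the other Pdgfa probe set gave the opposite order. It read 6.68, 6.84 and 7.06 at 0 h and 7.24, 6.88 and 7.69 with vehicle in p53ER cells, with overlap and a difference of 0.41, and did not overlap in uninfected cells, with a difference of 0.56. Hbegf, a ligand of the EGF receptor, was higher with vehicle in all 3 numbers, by 0.46, 0.71 and 1.02, and Vegfa, an angiogenic factor, by 0.77, 0.45 and 1.52, both with overlapping groups.

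The list of IL-6 family cytokines and growth factors had 18 members tested of 27. Of these, 11 were higher and 7 lower, none past the threshold, with a median of 0.30 against -0.03 over all genes. Beside the 2.4% of all genes whose vehicle arrays all lay above those at 0 h, the members that did so were 3 of 18: Il11, Fgf2 and Pdgfa. Ctf1 (cardiotrophin 1) and Tgfa (an EGF receptor ligand) lay below on every vehicle array, by 0.23 and 0.34, where 3.62% of all genes did. The median without the 3 arrays apart was 0.87, and by number it was -0.14, 0.44 and 1.08. The median in uninfected cells was 0.48, and 17 of 18 members had the same sign in both cell types, where 57% of all genes did. Il6 itself read 5.46, 4.33 and 4.59 at 0 h and 3.43, 5.67 and 6.09 with vehicle, so that number 1 was lower and numbers 2 and 3 higher.

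The receptors and STAT3 signalling genes of the pathway did not share the sign of Lif and Il11. Of 19 tested, 8 were higher and 11 lower, with a median of -0.04 and none past the threshold, and without the 3 arrays apart 3 of 19 were higher, with a median of -0.26. Osmr, the oncostatin M receptor subunit, read 8.79, 9.23 and 8.36 at 0 h and 7.62, 8.44 and 7.97 with vehicle, lower in all 3 numbers by 1.17, 0.79 and 0.40 (mean -0.78, SE 0.38). Bcl3, an atypical member of the I-kappa-B family, was also lower in all 3 numbers (mean -0.34), and Bcl6, a transcriptional repressor, was higher in all 3 (mean 0.50). The groups overlapped for each of the 19 genes. Over all genes, 2.4% lay without overlap on the higher side and 3.62% on the lower, so 0 of 19 is near that share.

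Over the 18 arrays, the 5 genes most like Lif by Pearson r were Gprc5a (0.958), Vegfa (0.954), Frmd6 (0.951), Plaur (0.948) and Hbegf (0.947). The 18 arrays share their scaling and the division between replicate 3 and the others, and the coefficients describe them without a test. Gprc5a, an orphan receptor gene, read 9.58, 9.46 and 10.16 at 0 h and 10.15, 10.21 and 10.86 with vehicle, higher in all 3 numbers (mean 0.67, SE 0.31), and in uninfected cells it was higher by 0.49. Plaur, the urokinase receptor, was higher by 0.14, 0.42 and 0.86. Frmd6, an adaptor protein of the cell cortex, was lower in number 1 by 0.09 and higher in numbers 2 and 3 by 0.15 and 0.81. In p53ER cells all 5 read highest in replicate 3, at 0 h as well as with vehicle, as Lif did; in uninfected cells at 0 h Hbegf read highest in replicate 2.

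Cyp51 had a smaller difference than the cytokines and a much narrower spread. It read 7.50, 7.56 and 7.38 at 0 h and 8.07, 7.96 and 8.10 with vehicle, without overlap and higher in each number by 0.57, 0.40 and 0.72. The mean difference was 0.57 (SE 0.15; 1.48-fold; limma adjusted p = 1), and 0.50 without the 3 arrays apart. In uninfected cells it read 7.36, 7.26 and 6.95 at 0 h and 7.56, 7.70 and 7.96 with vehicle, a difference of 0.55, and the cell types differed by 0.02 (SE 0.21; limma adjusted p = 1). Of its other probe sets, the brighter gave 0.34 and 0.45 in p53ER and uninfected cells and the dimmer -0.17 and 0.16. With 4-OHT, p53ER cells read 7.67, 7.73 and 7.81, a difference of 0.26 from the same 3 arrays at 0 h.

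The other enzymes of the cholesterol pathway were divided between higher and lower. Of 17 synthesis enzymes tested, 8 were higher and 9 lower, none past the threshold, and the median was -0.03, as over all genes, and -0.01 without the 3 arrays apart. Sqle (squalene epoxidase) read 8.02, 8.39 and 8.28 at 0 h and 8.46, 8.40 and 8.60 with vehicle, so the groups did not overlap, by a margin of 0.01, and the mean difference was 0.26. Of the 17 enzymes, 2 lay above on every vehicle array, Cyp51 and Sqle, where 2.4% of all genes did. On the lower side 1 of 17 lay below on every vehicle array, where 3.62% of all genes did. Msmo1, which acts after Cyp51 in the demethylation of sterols, was higher in numbers 2 and 3, by 0.36 and 0.59, and lower in number 1, by 0.03. Hsd17b7, another enzyme of the late pathway, was higher by 0.05, 0.15 and 1.14, where the last rests on replicate 3 at 0 h, an array apart. Idi1, of the early pathway, was lower in number 1 by 2.20 and higher in numbers 2 and 3 by 0.06 and 1.06. Other SREBP targets and regulators had 11 of 19 members higher and a median of 0.01; Insig1, which retains SREBP in the endoplasmic reticulum, read 7.29, 7.04 and 6.98 at 0 h and 7.29, 7.17 and 8.22 with vehicle. Of 6 LXR targets and cholesterol export genes 2 were higher, with a median of -0.20.

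**Figure D2:**
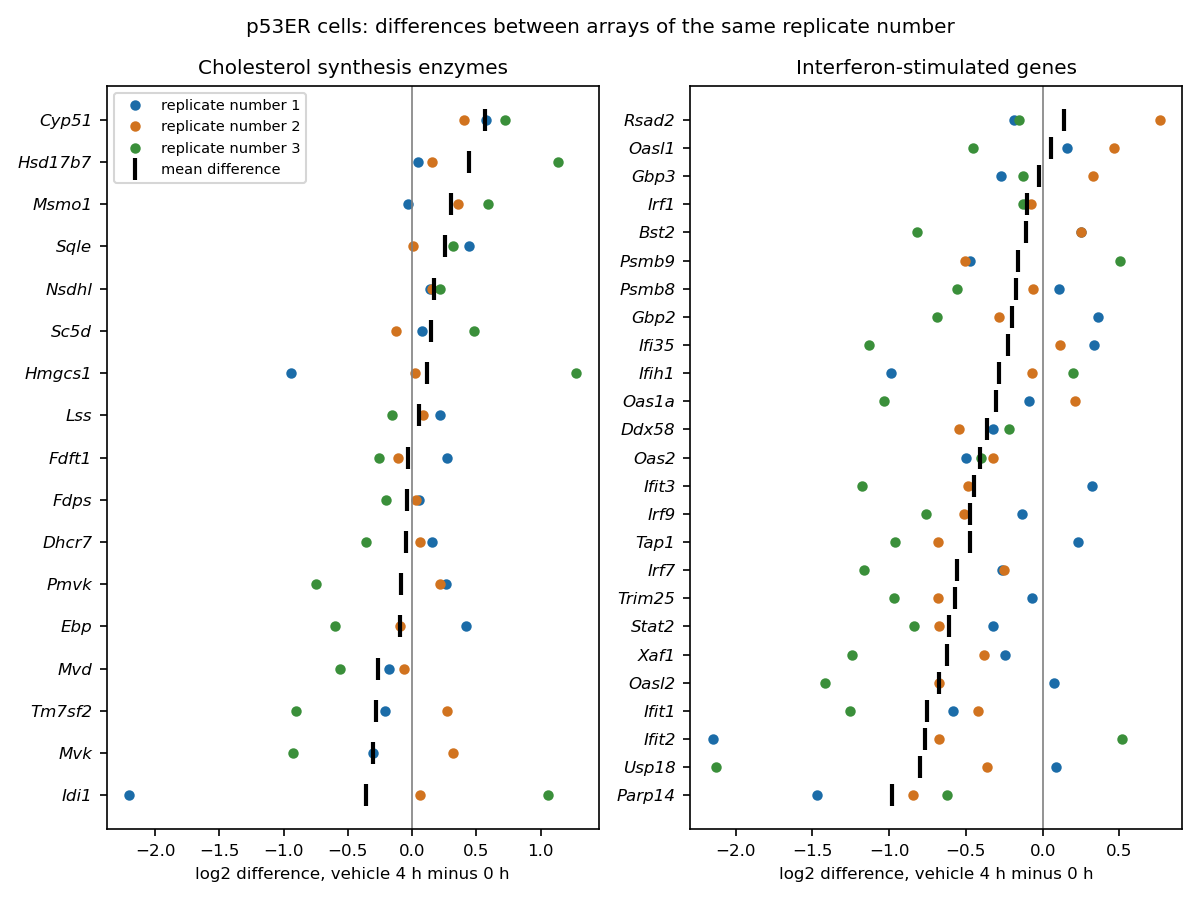
Differences between the vehicle and 0 h arrays of the same replicate number in p53ER cells (horizontal axis, log2 units) for the cholesterol synthesis enzymes and the interferon-stimulated genes tested; circles are the 3 numbers and bars their mean. Cyp51 lay at 0.40 to 0.72 in the 3 numbers at the head of an evenly divided list, while 23 of 25 interferon-stimulated genes had a mean below 0.

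Interferon-stimulated genes, which encode antiviral proteins induced by interferons, were mostly lower with vehicle. Of 25 tested, 2 were higher and 23 lower, with a median of -0.41 against -0.03 over all genes, and none passed the threshold. The vehicle arrays all lay below those at 0 h for 5 of 25, Trim25, Parp14, Ifit1, Xaf1 and Irf1, where 3.62% of all genes did so. Beside the 11.2% of all genes that were lower in all 3 numbers, the members that were so were 10 of 25, and 0 were higher in all 3. The medians by number were -0.14, -0.36 and -0.76, and without the 3 arrays apart the median was -0.50. In uninfected cells 20 of 25 were lower, with a median of -0.26.

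Trim25, a ubiquitin ligase that acts with the RNA sensor RIG-I, read 8.03, 8.07 and 8.32 at 0 h and 7.96, 7.39 and 7.36 with vehicle. Its difference was -0.57 (SE 0.18; limma adjusted p = 1), with number 1 lower by only 0.07, and in uninfected cells it was -0.37, there too without overlap. Its dimmer probe sets gave -0.35 and 0.07. Parp14, a mono-ADP-ribosyltransferase, read 6.36, 6.61 and 6.14 at 0 h and 4.88, 5.76 and 5.51 with vehicle, a difference of -0.98 (SE 0.36). Ddx58, which encodes RIG-I, was lower in all 3 numbers by 0.32, 0.55 and 0.22. Ifit2 was lower in number 1 by 2.15 and in number 2 by 0.67 and higher in number 3 by 0.52. With 4-OHT, p53ER cells read 7.29, 7.20 and 7.26 for Trim25 and 6.16, 6.0 and 5.88 for Parp14; these arrays are set against the same 0 h arrays.

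Genes that restrain MAP kinase signalling were mostly higher. Of 17 feedback regulators tested, 14 were higher, with a median of 0.39, and 0.53 without the 3 arrays apart; none passed the threshold. Higher in all 3 numbers were 8 of 17, where 9.39% of all genes were. Errfi1, an inhibitor of the EGF receptor, read 9.68, 9.37 and 9.32 at 0 h and 10.04, 10.09 and 10.44 with vehicle, without overlap, a difference of 0.74 (SE 0.24) in p53ER cells and 0.56 in uninfected cells. Lrig1, another inhibitor of that receptor, read 6.90, 6.50 and 7.59 at 0 h and 7.69, 7.64 and 8.38 with vehicle, a difference of 0.90 (SE 0.33), while its dimmer probe sets gave 0.38 and -0.49. Spred2 was higher in all 3 numbers with a mean of 0.39, and Spry1, a Sprouty inhibitor, was lower in all 3 with a mean of -0.74. In uninfected cells the list had 13 of 17 higher and a median of 0.18.

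NF-kB targets, NRF2 targets and chemokines also lay toward higher values. Of 16 NF-kB targets 13 were higher, with a median of 0.26. Tnfaip3 (A20, an inhibitor of NF-kB signalling) read 7.46, 7.12 and 6.78 at 0 h and 7.60, 7.74 and 7.88 with vehicle, without overlap, by 0.62 (SE 0.21), and in uninfected cells it was higher by 0.69, also without overlap. Tnfaip2 was higher in all 3 numbers, with a mean of 0.63. Nfkbie, an inhibitor of NF-kB, was higher in all 3, with a mean of 0.76 (SE 0.51), while Il1b lay below on every vehicle array, by 0.51. Of 13 chemokines 8 were higher, with a median of 0.26, and 0.82 without the 3 arrays apart. Cxcl2, a neutrophil chemokine, read 5.62, 5.82 and 5.73 at 0 h and 6.22, 6.48 and 8.26 with vehicle, so most of its mean of 1.26 (SE 0.72) came from number 3. Ccl7 was higher in all 3 numbers with a mean of 0.49. Cxcl3 was higher in number 1 by 1.09 and in number 3 by 0.54 and lower in number 2 by 0.07, and without the 3 arrays apart its difference was -0.004.

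Of 17 NRF2 targets, the genes of the oxidative stress response, 15 were higher, with a median of 0.28, and 0.57 without the 3 arrays apart; 10 of 17 were higher in uninfected cells. Hmox1 (heme oxygenase 1) read 9.71, 9.35 and 10.44 at 0 h and 10.23, 10.76 and 11.23 with vehicle, overlapping through replicate 3 and higher in every number, by 0.52, 1.41 and 0.80. Its mean difference was 0.91 (SE 0.34) in p53ER cells and 0.93 in uninfected cells. Txnrd1 (thioredoxin reductase 1) was higher in every number with a mean of 0.68, and Gclm and Gclc, the subunits of glutamate-cysteine ligase, by 0.30 and 0.55. Slc30a1, a zinc exporter that responds to zinc through MTF1, read 5.11, 5.26 and 3.95 at 0 h and 5.76, 5.68 and 6.31 with vehicle, by 1.14 (SE 0.45); its other probe set gave 0.16, and 3 of 5 metallothionein and zinc export genes were higher. Cyp1a1, the classic target of the aryl hydrocarbon receptor, was higher in every number, by 1.87, 1.53 and 0.16, from 5.75, 5.67 and 8.63 at 0 h. Ahrr, the repressor of that receptor, was higher in every number with a mean of 0.53, and Tiparp was lower in number 1 by 0.76 and higher in numbers 2 and 3. Over the 7 aryl hydrocarbon receptor targets 5 were higher.

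**Figure D3:**
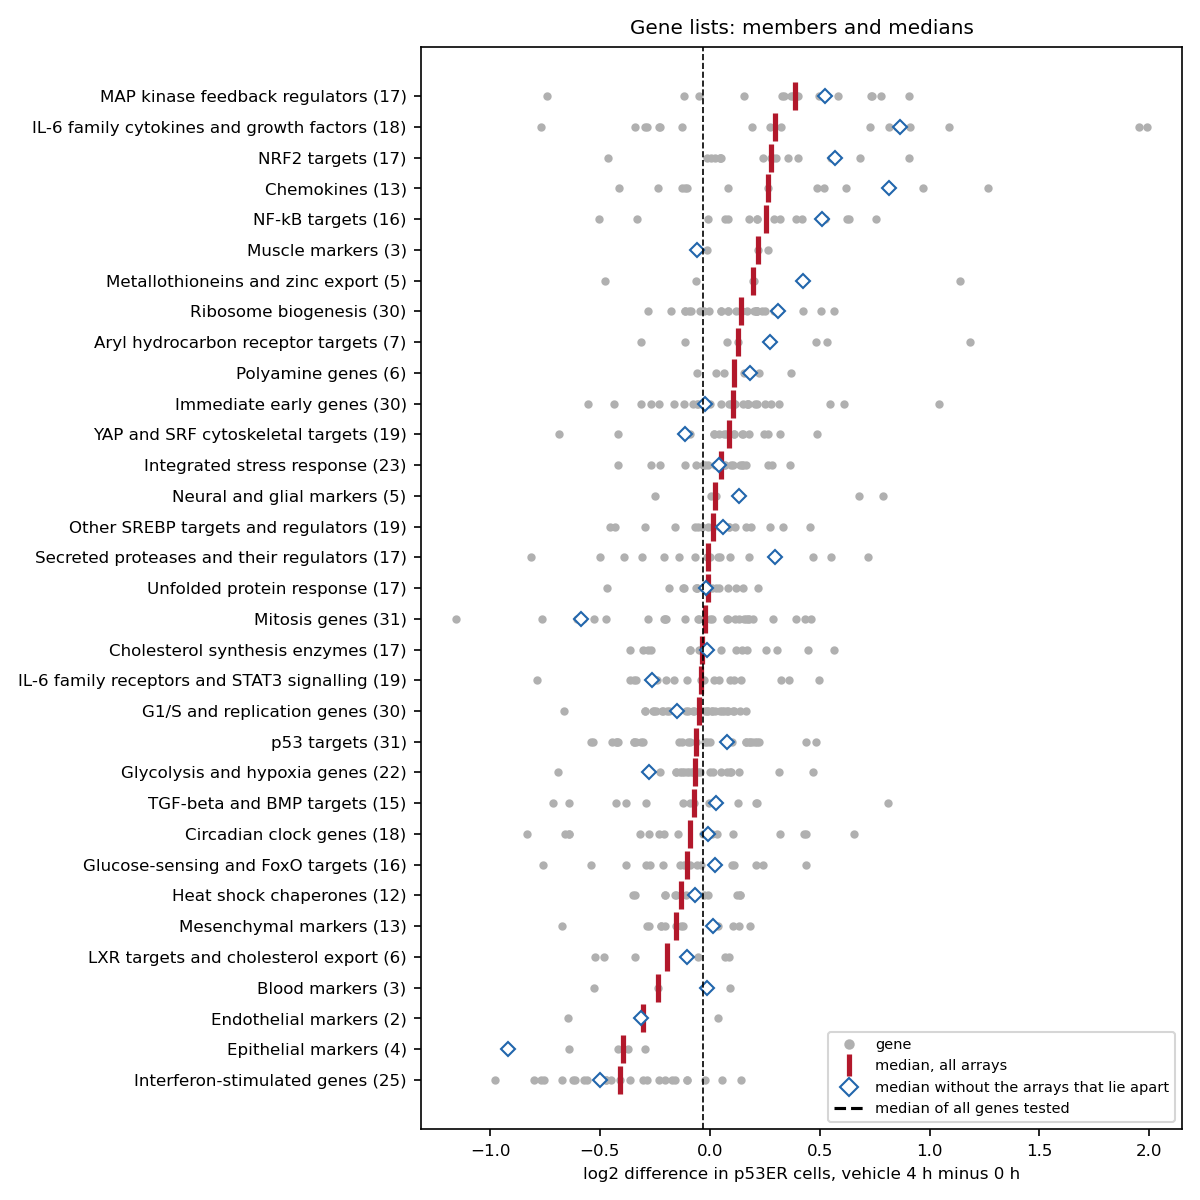
Vehicle minus 0 h differences in p53ER cells (horizontal axis, log2 units) of the tested members of each gene list, with the number tested in parentheses; bars are list medians over all arrays, diamonds are medians without the 3 arrays that lie apart, and the dashed line is the median over all genes. Medians ran from -0.41 for the interferon-stimulated genes to 0.39 for the MAP kinase feedback regulators, and the diamonds of the mitosis genes (-0.59) and of the epithelial markers (-0.92) lie far from their bars.

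Immediate early and clock genes were divided. Of 30 immediate early genes 20 were higher, with a median of 0.11, and without the 3 arrays apart 14 were, with a median of -0.02. Egr2 was lower in number 1 by 0.31 and higher in numbers 2 and 3 by 1.45 and 1.98, Gem was higher on every vehicle array by 0.55, and Dusp1 read 10.43, 10.46 and 10.05 at 0 h and 10.43, 9.84 and 9.37 with vehicle. Of 18 clock genes 7 were higher, and 9 without the 3 arrays apart. Per1, a repressor of the clock, read 6.27, 6.52 and 7.10 at 0 h and 6.42, 5.91 and 5.64 with vehicle, by -0.64 (SE 0.24) in p53ER cells and -0.73 in uninfected cells. Cry1, another repressor, read 4.04, 4.24 and 4.98 at 0 h and 5.20, 4.99 and 5.04 with vehicle, without overlap in either cell type, by 0.66 and 1.00. Of 15 TGF-beta and BMP targets 6 were higher, with a median of -0.07, and 8, with a median of 0.03, without the 3 arrays apart. Pmepa1, a feedback inhibitor of TGF-beta signalling, was higher in every number, by 0.17, 1.04 and 1.22, while Id3, Id2 and the ligand Tgfb2 had means of -0.43, -0.38 and -0.71. Of 16 glucose-sensing and FoxO targets 5 were higher, with a median of -0.10, and 10, with a median of 0.03, without the 3 arrays apart. Among them Pik3ip1, an inhibitor of PI3 kinase, lay below on every vehicle array in both cell types, by 0.76 and 0.43.

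Of 30 ribosome biogenesis genes 21 were higher, with a median of 0.14 in p53ER and in uninfected cells. Without the 3 arrays apart 24 of 30 were higher in p53ER cells, with a median of 0.31, and in the average of both cell types 27 of 30 were higher. Ddx21, a nucleolar helicase, read 7.77, 7.95 and 7.86 at 0 h and 8.63, 7.94 and 8.70 with vehicle, by 0.56 (SE 0.19), and Polr1b and Nop56 were higher by 0.42 and 0.31. Of 30 G1/S and replication genes 12 were higher, with a median of -0.05, and 6, with a median of -0.15, without the 3 arrays apart. Of 31 mitosis genes 15 were higher, with a median of -0.02, and 2 were higher, with a median of -0.59, without the 3 arrays apart; in uninfected cells 27 were higher, with a median of 0.23. Mki67, a marker of cycling cells, read 9.64, 9.40 and 7.33 at 0 h and 5.26, 9.62 and 8.02 with vehicle, so that the lowest value of each group was that of its array apart, and the uninfected array apart read 6.02 where the other two at 0 h read 9.42 and 8.91. Kif11, a spindle motor, was low on the same arrays, at 5.57 and 6.12 in p53ER cells.

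With the fusion left inactive, the direction of genes that p53 activates depended on the arrays used. Of 31 tested, 13 were higher and 18 lower, with a median of -0.06, and by number -0.31, -0.01 and 0.21. Without the 3 arrays apart 21 of 31 were higher, with a median of 0.08. Mdm2, Cdkn1a and Pmaip1, chosen after their values were seen, are p53 targets that restrain p53, stop the cycle and promote cell death. Mdm2 read 7.45, 7.52 and 7.86 at 0 h, 6.77, 7.30 and 8.73 with vehicle, and 10.21, 10.09 and 11.26 with 4-OHT. Cdkn1a read 7.72, 6.93 and 8.63 at 0 h, 7.34, 7.89 and 9.37 with vehicle, and 9.77, 10.17 and 11.23 with 4-OHT. Pmaip1 read 4.95, 4.78 and 3.88 at 0 h and 3.50, 4.68 and 5.14 with vehicle. For all 3 genes number 1 was lower and number 3 higher with vehicle, and the mean differences were -0.01 (SE 0.41), 0.44 (SE 0.49) and -0.09 (SE 0.52). In uninfected cells they were 0.68, 0.92 and 1.29, and the differences between the cell types, -0.69, -0.49 and -1.38, did not pass the test (limma adjusted p = 1 for each). Other Mdm2 probe sets gave 0.01 and -0.94 in uninfected cells, and another Cdkn1a probe set 0.45. Pmaip1 was dim there at 0 h, with 4.27, 2.55 and 3.57, the lowest on the array apart. Sesn1, another target, read 5.98, 6.07 and 6.24 at 0 h and 5.67, 5.29 and 5.71 with vehicle, without overlap, by -0.54 (SE 0.28). Rrm2b and Tnfaip8 were lower by 0.53 and 0.30 on average, and Aen was higher by 0.22.

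The medians of the remaining lists lay between -0.13 and 0.11. They were -0.07 for 22 glycolysis and hypoxia genes, of which 9 were higher and 13 lower. Among these genes Ndrg1 was higher by 0.31 and Slc2a1 by 0.47, while Car9 was lower in every number, with a mean of -0.69 (SE 0.59). Atf4, of the integrated stress response, was higher in every number with a mean of 0.37. The medians were 0.05 for 23 genes of that response and -0.01 for 17 genes of the unfolded protein response. They were -0.13 for 12 heat shock chaperones, 0.09 for 19 YAP and SRF targets, 0.11 for 6 polyamine genes and -0.01 for 17 secreted proteases and their regulators, where Igfbp3, a carrier of insulin-like growth factors, was higher by 0.72. Without the 3 arrays apart the median was -0.28 for the glycolysis and hypoxia genes and 0.30 for the proteases, and that of the YAP and SRF targets turned to -0.11, with 8 of 19 higher in place of 15 of 19.

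The genes ranked first by limma were chosen among those whose groups did not overlap and whose level reached 6. The 10 higher were Il11, Pdgfa, Sipa1l2, Mast3, Timm9, Slc25a13, Cyp51, Plekhg3, Nfya and Itprip, with differences of 0.45 to 1.95. Sipa1l2, an activator of Rap GTPase hydrolysis, read 6.64, 6.43 and 7.15 at 0 h and 7.59, 7.57 and 7.33 with vehicle, by 0.75 (SE 0.21). Nfya, a subunit of the CCAAT-binding factor NF-Y, read 7.12, 7.22 and 7.19 at 0 h and 7.64, 7.66 and 7.79 with vehicle, by 0.52 (SE 0.15), so its spread within a group was small beside the difference. Timm9, a chaperone of mitochondrial protein import, and Slc25a13, the mitochondrial aspartate-glutamate carrier, were higher by 0.66 and 0.62 in p53ER cells and by 0.08 and 0.03 in uninfected cells. Mast3 was the gene of the 10 with the opposite sign in uninfected cells, 0.69 against -0.20, and the difference between the cell types, 0.90 (SE 0.29), did not pass the test (limma adjusted p = 1).

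The 10 lower were Slc36a3, Vars2, Bvht, Psd3, Mtus2, Nsl1, Chtf18, Wdr24, Mdc1 and Cln6, with differences of 0.60 to 1.60 in size. Slc36a3, of a family of proton-coupled amino acid transporters, read 5.87, 6.16 and 5.98 at 0 h and 5.34, 3.86 and 4.03 with vehicle, by -1.60 (SE 0.32; limma adjusted p = 1), and by -2.07 without the 3 arrays apart. It read 6.12, 5.90 and 6.30 with 4-OHT and 5.24 to 6.06 on the 9 uninfected arrays, so that 2 arrays, vehicle replicates 2 and 3, stood below all the others. Nsl1, a subunit of the kinetochore's MIS12 complex, read 6.43, 6.96 and 6.69 at 0 h, 5.72, 5.69 and 5.78 with vehicle, and 6.62, 6.67 and 6.61 with 4-OHT, and in uninfected cells its difference was 0.33, against -0.96 (SE 0.23) in p53ER cells. The difference between the cell types, -1.29 (SE 0.33), did not pass the test (limma adjusted p = 1). The dimmer Nsl1 probe set went the other way in p53ER cells, higher in all 3 numbers with a mean of 0.52, and gave -0.03 in uninfected cells. Chtf18, of the clamp loader for sister chromatid cohesion, and Mdc1, a mediator of the DNA damage checkpoint, were lower on every vehicle array in both cell types, by 0.76 and 0.63 in p53ER cells. Wdr24, of the GATOR2 complex in amino acid sensing, was lower by 0.76 and Vars2, the mitochondrial valyl-tRNA synthetase, by 1.18, where a dimmer Vars2 probe set gave 0.54.

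Most of the genes ranked first had the same sign in uninfected cells. Of the 10 higher genes 9 were higher in uninfected cells, where 42.3% of all genes were. There 5 of them were higher without overlap, against 4.17% of all genes. Of the 10 lower genes 9 were lower in uninfected cells, where 57.7% of all genes were. There 3 of them were lower without overlap, against 7.29% of all genes. Over all 10916 genes the differences in the 2 cell types correlated weakly across genes, with a Pearson r of 0.03 and a Spearman rho of 0.12, and of 0.16 and 0.13 without the 3 arrays apart; genes are not independent replicates. The cell types were compared directly in limma, and 0 genes had an adjusted p under 0.05, with 236 at an unadjusted p under 0.05. So no gene was shown to differ between p53ER and uninfected cells in its vehicle minus 0 h difference.

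**Figure D4:**
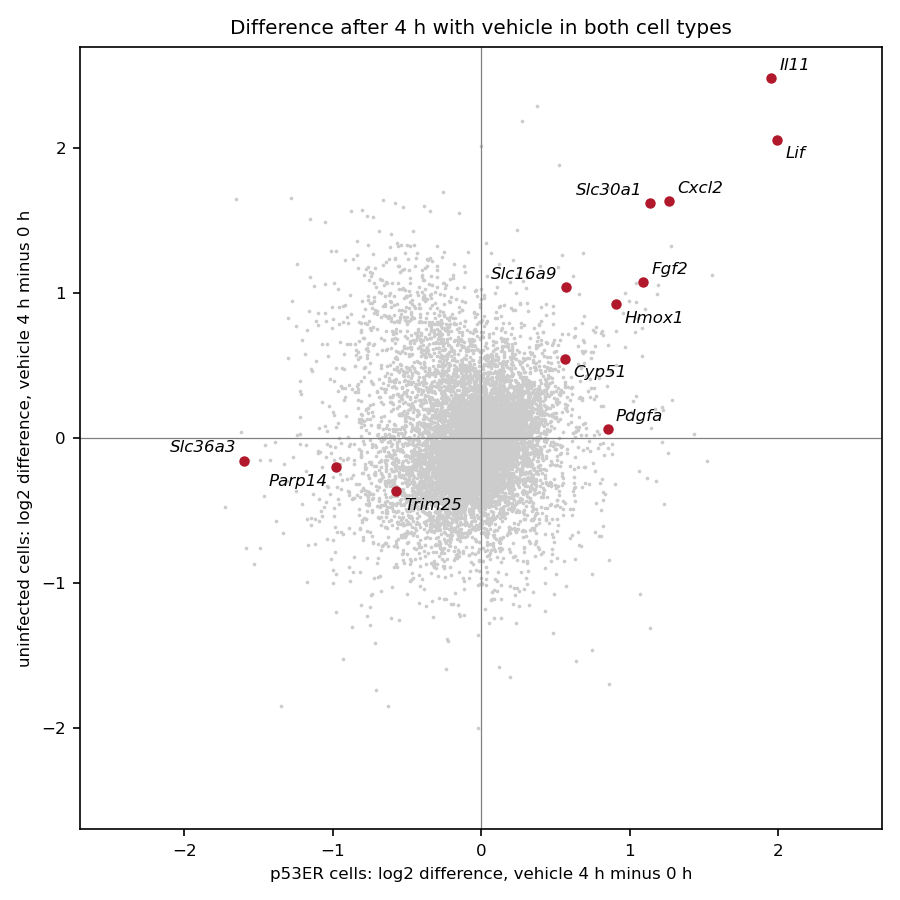
Vehicle minus 0 h differences of the 10916 genes tested in p53ER cells (horizontal axis) and in uninfected cells (vertical axis), both in log2 units, with 12 genes of the text marked. Il11 and Lif lie in the upper right, the brighter probe set of Pdgfa lies near 0 in uninfected cells, and Slc36a3 lies at -1.60 in p53ER cells and -0.16 in uninfected cells.

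Averaged over both cell types, with 12 arrays, limma gave 0 genes at an adjusted p under 0.05 (smallest 0.233) and 755 at an unadjusted p under 0.05; without the 3 arrays apart the smallest adjusted p was 0.0532. Genes that did not overlap in either cell type were 0.302% of all genes tested on the higher side and 0.605% on the lower. A level of at least 6 was also required in both cell types. The 10 then ranked first on the higher side were Baiap2l1, Cyp51, Il11, Plekhg3, Rai14, Sipa1l2, Slc16a9, Tnfaip3, Tns3 and Ugdh. Fgf2 ranked above Cyp51 and was left out by its level, a mean of 5.87 with vehicle in p53ER cells. Of the cytokine and growth factor list, 2 of 18 did not overlap in either, Il11 and Fgf2; of the cholesterol list, 1 of 17, Cyp51. Ugdh, which makes the UDP-glucuronate used in hyaluronan, read 11.02, 10.69 and 10.62 at 0 h and 11.16, 11.14 and 11.30 with vehicle in p53ER cells, an average difference over both cell types of 0.49 (SE 0.10). Slc16a9, a monocarboxylate transporter, read 6.26, 6.50 and 6.79 at 0 h and 6.89, 7.30 and 7.07 with vehicle, with an average of 0.80 (SE 0.16). Tns3, a focal adhesion protein, averaged 0.49 and Rai14, an actin-associated protein, 0.58. The 10 on the lower side were AU040320, Chtf18, Cln6, Evi5l, Mdc1, Snupn, Sorbs3, Tmub2, Tns2 and Trim25. Sorbs3 (vinexin) and Tns2 are focal adhesion proteins too, and averaged -0.58 and -0.63; in p53ER cells Tns2 read 6.61, 6.87 and 7.03 at 0 h and 6.58, 6.31 and 5.69 with vehicle.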

How the data were processed

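Total RNA of 18 samples was labelled as biotinylated cRNA and read on Affymetrix mouse arrays with 45101 probe sets, per the labels' protocols and the deposited table. The deposited values were linear signal intensities, which the authors made with MAS5 per the submitters' processing notes; its version and target are not given in the sources used here. Signals were brought to the same 2% trimmed mean on every array (82.7), 4.13 (5% of it) was added, and log2 was taken, so the floor is 2.05.

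The probe annotation listed 35890 probe sets, 34958 with 1 gene, 932 with several and 9211 unlisted; 34754 matched the GRCm38.p6 gene table, used for names and promoters. Each of 18194 genes was read by its brightest probe set, and the upper 60% by mean level, 10916 genes (dimmest mean 4.74), were tested. Some genes are not analysed here.

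The 6 group means were fitted to all 18 arrays together, leaving 12 residual degrees of freedom and 1 spread shared by all groups, with limma 3.58.1 in R 4.3.3, with a trended and robust prior. Two-sided p-values were corrected over all genes tested (Benjamini-Hochberg, threshold 0.05). The smallest exact permutation p for 3 arrays against 3 is 0.1. The number of arrays limits the precision.

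The members, the 33 gene lists (601 entries, 598 different genes, 565 on the array, 524 tested) and the alternatives were chosen with earlier results of these data known. Genes were named by this rule: Lif and Cyp51; up to 10 each way by moderated t among genes without overlap and with a mean level of at least 6 in the higher group, for p53ER cells and for the average; up to 4 from each list; and the 5 genes most like Lif. Genes given as examples from list counts, Esr1, Mdm2, Cdkn1a and Pmaip1 were chosen after their values were seen. Figures were drawn with matplotlib 3.10.9.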

Additional observations from a re-analysis of the deposited data

How the results depend on the processing

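The count of genes past the threshold in limma stayed at 0 in p53ER cells under most alternatives. It was 1 with array weights and 1 without the 3 arrays apart, Slc36a3 in both; leaving out 1 array at a time it ranged from 0 to 1, with Slc36a3 called without vehicle replicate 1 (adjusted p = 0.00431) and Npy without vehicle replicate 2 (adjusted p = 0.0143). With all probe sets in the fit, 1 probe set, of Kcnma1, was called in uninfected cells and 1 in the average of both cell types. The difference between the cell types gave 0 genes under every alternative.

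With the replicate number as a term (replicate block), 0 genes were called in p53ER cells, where 570 had an unadjusted p under 0.05; the average of both cell types had 6 calls: Chst11, Cx3cl1, Gprc5a, Il11, Lif and Slc16a9, of which Chst11 and Cx3cl1 were named after their values were seen. Array weights with the replicate block gave 1 gene in uninfected cells, Il11, and 15 in the average, and leaving out the 3 arrays apart with the block gave 35 in the average. Deviations of arrays with the same number correlated at -0.08, 0.36 and 0.15 in p53ER cells and at 0.34, 0.05 and 0.40 in uninfected cells, so 1 number in each cell type fell short of 0.1, and both such pairs hold an array apart. In p53ER cells 3 of 6 arrays and in uninfected cells 5 of 6 correlated best with the array of their own number. Each array was set against only 3 arrays, so some such matches arise without any pairing. Replicate 3 of every group lay apart on the second principal component. These are at most a hint of pairing, less so in p53ER cells, from the data and not from the design. No label gives the meaning of a number, and the block is therefore kept as an alternative.

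Of 101 named genes, 93 kept the sign of their p53ER difference under every alternative run. Mdm2 was 0.024 after quantile normalization, 0.002 with the larger offset, 0.109 with array weights, 0.53 without the 3 arrays apart and 0.131 without them and with the block; leaving out 1 array it ranged from -0.579 to 0.405. Pmaip1 was 0.032 after quantile normalization and 0.053 without the 3 arrays apart, and ranged from -0.44 to 0.38 over single arrays. Mki67 ranged from -2.149 to 0.031, Cdkn1a from -0.147 to 0.874 and Frmd6 from -0.03 to 0.547. Cxcl3 was -0.004 without the 3 arrays apart, and with number 3 of every group left out Id3 was 0.01 and Tiparp -0.079. The cause of these reversals was not tested. Of 626 list medians under alternatives, 85 moved beyond the spread between replicate numbers, 13 of them without the 3 arrays apart. There are 3 arrays a group and 2 of the 6 lie apart, dim genes near the floor have compressed differences, and medium, handling and time cannot be told apart.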

Other observations

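Among the named genes, 3 were higher in all 3 replicate numbers of p53ER cells and lower in all 3 of uninfected cells. They were Bcl6, Bhlhe41 and Hsd17b7, chosen after their values were seen. The other members of the lists were not searched for this pattern, so 3 is not a count over the lists. The same held for 104 of all genes tested (0.953%), and the opposite for 46 (0.421%). Bcl6 and Bhlhe41 encode transcriptional repressors, and Hsd17b7 encodes a sterol enzyme. Bcl6 differed by 0.50 in p53ER cells and -0.47 in uninfected cells, Bhlhe41 by 0.44 and -0.54, and Hsd17b7 by 0.44 and -0.09. The differences between the cell types, 0.97 (SE 0.50), 0.98 (SE 0.43) and 0.53 (SE 0.40), did not pass the test (limma adjusted p = 1 for each). Another Bcl6 probe set gave -0.22 in p53ER cells and -0.36 in uninfected cells, and another Hsd17b7 probe set gave 0.38 and 0.28, so neither showed the opposite signs.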
